A study of Mus musculus with 9 samples.

Results

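The genes described here encode the ligands, receptors, signal carriers and a matrix anchor of the transforming growth factor beta (TGF-beta) pathway. They are the ligands Tgfb1, Tgfb2 and Tgfb3, the receptors Tgfbr1, Tgfbr2 and Tgfbr3, the intracellular proteins Smad2, Smad3 and Smad7, and the latent TGF-beta binding protein Ltbp1. The members were chosen by gene symbol, with earlier results of these data known. All 10 were found among the 17964 gene symbols of the deposited tables, both in the table of cells sorted from the retina (16367 symbols) and in the table of cultured cells (17035 symbols). All 10 also had a mean of at least 10 normalised counts over the 6 sorted libraries, the level required for testing.

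TGF-beta ligands leave the cell wrapped in their own propeptide, and in many tissues a binding protein such as Ltbp1 ties this latent complex to the matrix until integrins or proteases release it. The free ligand brings the type II receptor Tgfbr2 together with the type I receptor Tgfbr1, whose kinase phosphorylates Smad2 and Smad3. These join Smad4 and enter the nucleus, where Smad7 is among the induced genes and acts back on the receptor as an inhibitor. In the brain and retina microglia depend on TGF-beta for their resting gene programme, and in fibroblasts and mural cells the same pathway drives collagen and smooth muscle actin. Tgfb2 is also known from the front of the eye, where it is raised in the aqueous humour in open-angle glaucoma.

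RNA sequencing covered 9 mouse libraries labelled as Müller glia, the main glia of the retina, in 3 groups of 3, all of the WT genotype. In the OHT (ocular hypertension) group 1.2 µL of silicone oil had been injected into the anterior chamber of each eye, while the sham group had a corneal incision and no oil. For both, 4 neural retinas were pooled per library, and cells that bound an antibody against the glutamate transporter GLAST were kept on magnetic beads after dead cells had been removed. The third group consisted of untreated primary cultures from C57BL/6J pups at postnatal days 8 to 10, grown in medium with fetal bovine serum and passaged on gelatin. The strain and age of the sorted animals, the time under raised pressure and the number of pups behind a culture are not given in these sources. The labels do not say that the libraries of a group came from separate animals or cultures, so p-values measure only the spread between these libraries.

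Whole reads recovered from the deposited values came to between 37.8 and 53.6 M (1000000 reads) in the sorted libraries and between 66.3 and 76.7 M in the cultures. OHT replicate 1 stood apart in scale, with a normalised total of 65.8 M against 37.8 to 44.1 M in the other sorted libraries, so levels are also given as ppm, reads per 1000000 reads of the library total. In the sorted libraries the markers of the labelled cell did not dominate. The 10 microglia and macrophage markers summed to between 2.46% and 3.85% of the sham reads and between 3.98% and 5.36% of the OHT reads, while the 10 Müller glia markers summed to between 0.444% and 1.15% and between 0.238% and 0.537%. Rod markers (6 genes) ranged from 0.228% to 2.27% in sham and from 0.068% to 0.282% in OHT libraries, and mural and fibroblast markers (8 genes) from 0.0124% to 0.0379% and from 0.000881% to 0.00553%. Endothelial markers (6 genes) ranged from 0.0216% to 0.0458% in sham and from 0.0108% to 0.0203% in OHT libraries. Thus the microglial share was higher in every OHT library than in any sham library, and the mural and endothelial shares were lower. Of the 10 microglia and macrophage markers, 8 were higher in OHT by the log2 difference used below and 2 were lower. Sham replicate 1 had the lowest rod and astrocyte shares of its group (0.228% and 0.0037%). Its Müller glia and mural and fibroblast shares (0.444% and 0.0124%) were also the lowest of the group. Its microglia and macrophage share (3.85%) was the highest of the group. Mitochondrial transcripts also separated the groups, at 12.2%, 18.1% and 13.4% of the sham reads and 5.56%, 3.84% and 1.98% of the OHT reads. The part of these shares in the differences below was not tested. In the cultures the microglial sum was between 0.00234% and 0.00491%. Of the 10 Müller glia markers 9 were below every sorted library there, and Rlbp1, the retinaldehyde-binding protein that defines these cells, was at 2.24 ± 0.620 ppm (SD, n = 3) against a sorted range of 389 to 2090 ppm; only Vim, the intermediate filament vimentin, was higher. In bulk RNA of this kind, fewer cells of a type and less RNA per cell cannot be told apart.

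To show what lies in front of these genes, the 250 bases before the annotated start were read from RefSeq windows on GRCm38.p6, which held 6 of the 10 members. In all 5 runs are printed, 1 for each member with a window whose level in the cultures lay apart from all sorted libraries, each 5′ to 3′ on the strand of its gene. Tgfbr1 and Ltbp1 each have a further annotated start inside the gene, and for them the most upstream window is printed. Capitals mark matches to the motifs that were searched on both strands: the TATA box TATAAA, the cAMP response element TGACGTCA, the GC box GGGCGG, the AP-1 site TGANTCA, the PU.1 core GAGGAAG and the SMAD box GTCTAGAC.
Tgfb1: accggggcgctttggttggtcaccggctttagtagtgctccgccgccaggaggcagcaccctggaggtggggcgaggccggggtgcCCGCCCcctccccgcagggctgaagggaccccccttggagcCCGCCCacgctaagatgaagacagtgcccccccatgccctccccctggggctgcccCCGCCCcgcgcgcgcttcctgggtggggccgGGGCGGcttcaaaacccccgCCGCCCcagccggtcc
Tgfb2: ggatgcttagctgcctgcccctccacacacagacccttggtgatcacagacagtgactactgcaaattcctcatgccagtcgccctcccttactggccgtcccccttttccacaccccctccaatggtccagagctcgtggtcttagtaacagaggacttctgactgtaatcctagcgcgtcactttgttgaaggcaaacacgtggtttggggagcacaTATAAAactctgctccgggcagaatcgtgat
Tgfbr1: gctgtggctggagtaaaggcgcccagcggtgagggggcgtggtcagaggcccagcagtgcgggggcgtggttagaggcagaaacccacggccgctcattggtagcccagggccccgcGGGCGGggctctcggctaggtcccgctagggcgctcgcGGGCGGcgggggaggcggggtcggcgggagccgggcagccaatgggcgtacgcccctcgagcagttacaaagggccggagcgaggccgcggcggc
Tgfbr2: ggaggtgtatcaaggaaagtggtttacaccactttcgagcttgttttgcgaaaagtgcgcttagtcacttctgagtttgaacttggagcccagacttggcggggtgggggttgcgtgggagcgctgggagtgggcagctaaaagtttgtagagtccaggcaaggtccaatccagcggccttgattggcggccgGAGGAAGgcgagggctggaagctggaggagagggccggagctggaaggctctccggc
Ltbp1: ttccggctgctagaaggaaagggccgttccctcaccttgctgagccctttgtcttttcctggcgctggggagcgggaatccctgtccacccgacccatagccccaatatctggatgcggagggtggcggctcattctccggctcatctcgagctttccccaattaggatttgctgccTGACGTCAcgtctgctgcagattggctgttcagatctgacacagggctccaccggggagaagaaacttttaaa
The Tgfb1 window lies at chr7:25686752-25687001 on the plus strand, Tgfb2 at chr1:186705990-186706239 on the minus strand, Tgfbr1 at chr4:47352972-47353221 on the plus strand, Tgfbr2 at chr9:116175364-116175613 on the minus strand and Ltbp1 at chr17:75005279-75005528 on the plus strand. None overlaps an annotated gene except that of Tgfb2, where an exon of Gm29491 on the opposite strand covers part of the window. The ligand genes differ in make-up: the Tgfb1 run is 75.2% G and C and holds 5 GC boxes, whereas the Tgfb2 run is 53.6% G and C and holds no GC box but a TATA box at 31 to 26 bases before the start. GC boxes were found in 32.7% and the TATA box in 12.4% of 32851 windows of the same length, whose median G and C content was 52.4%. The upstream Tgfbr1 run is 74.8% G and C with 2 GC boxes, while the window of its inner start (chr4:47385966-47386215) is 52.8% with no GC box and a PU.1 core at 95 to 89 bases before that start. The Tgfbr2 run is 58.4% G and C and also holds a PU.1 core, at 57 to 51 bases. PU.1 is a transcription factor of macrophages and microglia, and its core was found in 10.6% of windows. The Ltbp1 run holds a cAMP response element 73 to 66 bases before the start, a match found in 1.55% of windows, and the window of its inner start (chr17:75178531-75178780) holds none of the motifs. No printed run holds the AP-1 site (6.75% of windows) or the SMAD box (0.167%), no matches overlap one another, and no match here is evidence of binding.

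In the sorted cells the signalling receptors Tgfbr1 and Tgfbr2 were the most abundant members, and the co-receptor Tgfbr3 was the least abundant. On the scale of ppm per kb of transcript, which allows genes to be compared, Tgfbr1 stood at 69.2 ± 23.1 in sham and 71.8 ± 7.34 in OHT libraries (mean ± SD, n = 3 throughout), and Tgfbr2 followed at 17.6 ± 3.69 and 19.99 ± 2.39. Each of the first 2 ranks was separated from the next without overlap in both groups. Below them in sham came Tgfb2 at 8.81 ± 3.32, Smad3 at 6.42 ± 3.01 and Smad2 at 4.14 ± 0.334 ppm per kb, whose neighbouring ranges overlapped. Tgfb1 at 2.91 ± 0.275 lay below every sham value of Smad2 and overlapped with Smad7 at 2.07 ± 1.21 ppm per kb. The lowest levels were those of Ltbp1 at 1.05 ± 0.550, Tgfb3 at 0.537 ± 0.428 and Tgfbr3 at 0.194 ± 0.312 ppm per kb, again with overlapping neighbours. In OHT libraries Smad3 (7.58 ± 3.88) and Tgfb2 (5.33 ± 3.01) exchanged places, and every neighbouring pair from the third rank down overlapped.

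**Figure D1:**
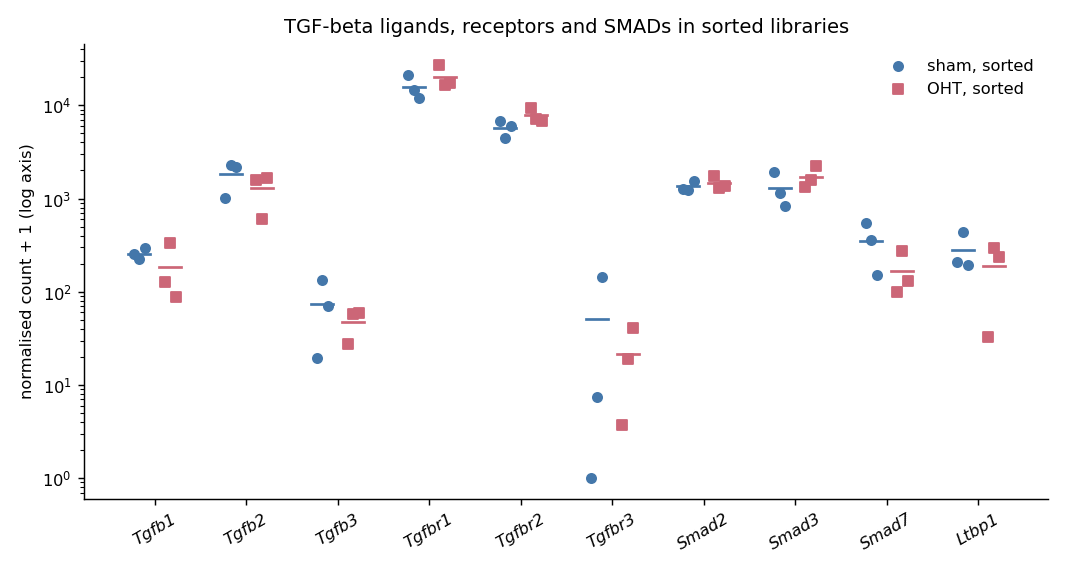
Normalised counts plus 1 of the 10 members in the sorted libraries on a log axis; circles are sham and squares OHT libraries, and horizontal lines are group means (n = 3 libraries each). Among the members only Tgfbr2 has all OHT libraries (6826 to 9347) above all sham libraries (4468 to 6768), and Tgfbr3 is spread from 0 to 144 within the sham group.

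No member passed the test between OHT and sham, and neither did any other gene. With limma on log2(normalised count + 1), 0 of 14403 genes (0.0%) had a Benjamini-Hochberg adjusted p under 0.05 (lowest value 0.332). Without adjustment limma listed 1680 genes (11.7%) at p under 0.05, and none of the 10 members. edgeR also called 0 genes (1575 at an unadjusted p under 0.05, or 10.9%). DESeq2, run on the same recovered reads, called 250 (1.74%), of which none was a member. The median log2 difference over all tested genes was -0.12 and that over the members was -0.11, with 5 members above 0 (45.2% of all tested genes were) and 5 below. Scaling each library to its total moved the median over all genes to -0.36, so a difference of any member is to be read against that shift.

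The ligand Tgfb1, the form made most widely by immune cells and the one microglia are known to release, was at 251, 223 and 292 normalised counts in the sham libraries. In the OHT libraries it was at 126, 337 and 86.5. OHT replicate 2 had the highest value of all and the other OHT libraries the lowest, so the groups overlapped. Their means were 255 ± 34.5 and 183 ± 135, and the log2 difference of OHT minus sham was -0.71 (SE 0.76, 95% interval from -2.38 to 0.95, limma adjusted p = 0.700). Without OHT replicate 2 it was -1.27 and without OHT replicate 3 it was -0.30. The Tgfb1 transcript is 62.5% G and C, in the top bin of tested genes by base composition (55.9% to 73.1%, 2706 genes of the 13530 with a value), and the median log2 deviation of that bin was also negative in OHT replicates 1 (-0.31) and 3 (-0.34) and positive in replicate 2 (0.22). The part of base composition in the Tgfb1 values was not tested.

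Tgfb2, the main ligand of the aqueous humour, was at 1010.4, 2285 and 2181 normalised counts in sham and at 1596, 598 and 1660.4 in OHT libraries. Sham replicate 1 and OHT replicate 2 were low and the other 4 libraries lay between 1596 and 2285. The means were 1825 ± 708 and 1285 ± 595, with a log2 difference of -0.55 (SE 0.51, interval from -1.68 to 0.57, limma adjusted p = 0.659). That value moved with single libraries in both directions: without OHT replicate 2 it was -0.074 and without sham replicate 1 it was -0.94. OHT replicate 2 was thus the library with the most Tgfb1 and the least Tgfb2.

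Tgfb3, a ligand best known from palate fusion and connective tissue, was near the lower end of detection in sorted cells. It was at 18.6, 132 and 68.9 normalised counts in sham and at 26.3, 56.8 and 57.7 in OHT libraries, from between 18 and 143 recovered reads. All OHT values lay inside the sham range. The log2 difference was -0.33 (SE 1.13, interval from -2.79 to 2.14, limma adjusted p = 0.911), and its sign turned without OHT replicate 1 (0.040) or without sham replicate 2 (0.29). In GENCODE M21 12.4% of its exonic bases overlap predicted genes on the opposite strand, so its reads cannot be fully told apart from theirs.

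Because the ligands share receptors, their make-up was also expressed as a percentage of the summed reads per kb of all 3, a ratio that no library scaling can alter. Tgfb2 made up 62.0%, 75.9% and 73.4% of ligand reads in sham and 82.6%, 40.5% and 85.1% in OHT libraries. Tgfb1 accounted for 36.2%, 17.4% and 23.1% in sham and for 15.3%, 53.6% and 10.4% in OHT libraries. Tgfb2 was therefore the leading ligand in every sorted library except OHT replicate 2, where Tgfb1 led. Tgfb3 stayed between 1.73% and 6.63%. The group means for Tgfb2, 70.4% ± 7.403 and 69.4% ± 25.04, differed by less than either SD.

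**Figure D2:**
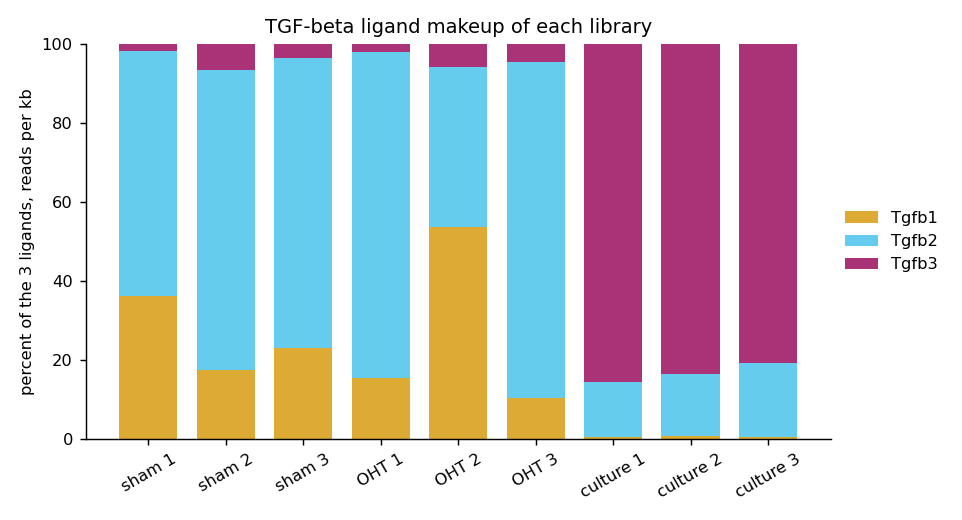
Share of each TGF-beta ligand in the summed ligand reads per kb, in percent, stacked to 100% for each of the 9 libraries. Tgfb2 is the largest part of every sorted library except OHT replicate 2 (40.5%), and Tgfb3 makes up 80.7% to 85.6% of every culture.

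Each ligand had a different pattern across the 6 sorted libraries, and the genes closest to each were sought among 11529 genes with a mean of at least 100, by the root mean square (RMS) difference of log2 deviations from the gene's own mean. Closest to Tgfb1 were Slc35b2, a Golgi transporter of the sulphate donor, at an RMS difference of 0.12 and Tmem185b at 0.14, where Tgfb1 itself deviated by 0.69. Slc35b2 had its own peak in OHT replicate 2 (6610 normalised counts) and its low in OHT replicate 3 (2045). Closest to Tgfb2 were Sgip1, an endocytic adaptor, at 0.11 and Map7, a microtubule-associated protein, at 0.14, against a deviation of 0.67 for the ligand. Zfp446, the nearest to Tgfb3, was further off, at 0.20 against 0.90. These are descriptions over 6 libraries.

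Ltbp1, which holds latent TGF-beta in the matrix, was at 208, 442 and 192 normalised counts in sham and at 31.8, 296 and 232 in OHT libraries. OHT replicate 1 was far below the rest, and the other OHT libraries lay within the sham range. The log2 difference was -0.99 (SE 0.94, interval from -3.05 to 1.07, limma adjusted p = 0.665), and without OHT replicate 1 it was 0.011.

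Tgfbr1, the type I receptor kinase, was at 21168, 14663 and 11896 normalised counts in sham and at 27302, 16331 and 17174 in OHT libraries. The OHT range began inside the sham range. The means were 15909 ± 4759.6 and 20269 ± 6105, with a log2 difference of 0.35 (SE 0.35, interval from -0.42 to 1.13, limma adjusted p = 0.683). In ppm the OHT values of 415, 370.2 and 455 all lay within the sham range of 279.6 to 542.

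Tgfbr2, the type II receptor that binds ligand first, was at 6768, 4468 and 6021 normalised counts in sham and at 9347, 7174 and 6826 in OHT libraries. Every OHT library was above every sham library, which made Tgfbr2 the single member of 10 without overlap; 9.26% of all tested genes lay above sham in this way, 9.18% below and 18.4% apart in either direction. The means were 5752 ± 1173 and 7782.5 ± 1366, and the log2 difference was 0.44 (SE 0.32, interval from -0.26 to 1.15, limma adjusted p = 0.576). On the ppm scale the groups overlapped, at 173, 114 and 142 in sham and 142, 163 and 181 in OHT libraries. No member lay apart on that scale, where 16.9% of all genes did (5.44% above and 11.4% below). The share of microglial marker reads was higher in the same libraries (3.98% to 5.36% against 2.46% to 3.85%), and its part in the Tgfbr2 values was not tested.

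The ratio of Tgfbr2 to Tgfbr1 per kb was 0.227, 0.217 and 0.360 in sham and 0.244, 0.312 and 0.283 in OHT libraries. All OHT ratios lay inside the sham range.

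Tgfbr3, the co-receptor betaglycan that presents Tgfb2 to the signalling receptors, was scarcely present in sorted cells. It was at 0, 6.46 and 144 normalised counts in sham and at 2.76, 18.1 and 40.1 in OHT libraries. The 0 reads of sham replicate 1 allow a level of up to 0.0793 ppm at the limit of 3 reads, and OHT replicate 1 had 2 reads. The log2 difference of 0.48 (SE 1.94, interval from -3.77 to 4.74, limma adjusted p = 0.923) had no fixed sign: it was -1.36 with edgeR, -1.29 with DESeq2, -1.19 without sham replicate 1 and 2.39 without sham replicate 3. Its highest value came from sham replicate 3, which had the highest shares of both astrocyte (0.123%) and mural and fibroblast markers (0.0379%). Sham replicate 2, with an astrocyte share of 0.0701%, was at 6.46. The part of any cell type in these values was not tested.

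**Figure D3:**
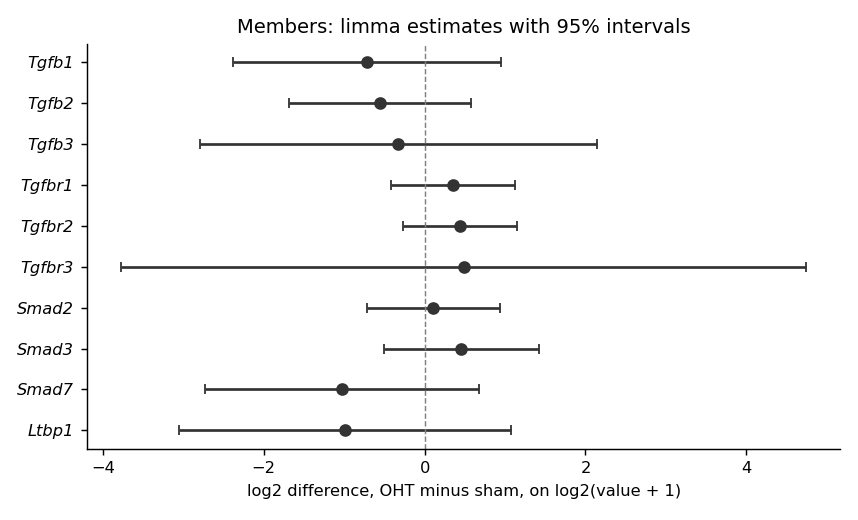
Log2 difference of OHT minus sham on the log2(normalised count + 1) scale for each member, with the limma 95% interval as a bar (n = 3 libraries a group). Every interval contains 0; the narrowest is that of Tgfbr2 (-0.26 to 1.15) and the widest that of Tgfbr3 (-3.77 to 4.74).

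Smad2 and Smad3 carry the signal from the receptor to the nucleus. Smad2 varied least of the members across the sorted libraries, at 1261, 1242 and 1556 normalised counts in sham and 1729.9, 1282 and 1379 in OHT libraries. Its log2 difference was 0.11 (SE 0.38, interval from -0.72 to 0.94, limma adjusted p = 0.911). Scaled to the library total it was -0.14. Smad3 was at 1933, 1148 and 825 normalised counts in sham and at 1325, 1593 and 2245 in OHT libraries. Its groups overlapped widely, with a log2 difference of 0.46 (SE 0.44, interval from -0.51 to 1.42, limma adjusted p = 0.672). Leaving out sham replicate 3, the lowest library, gave 0.17, and leaving out sham replicate 1 gave 0.79. The ratio of Smad3 to Smad2 per kb ranged from 0.842 to 2.44 in sham and from 1.22 to 2.59 in OHT libraries.

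Smad7, the feedback inhibitor, was at 540.3, 361 and 150.2 normalised counts in sham and at 98.1, 271 and 129 in OHT libraries. Only OHT replicate 2 stood above the lowest sham library. The means were 350.4 ± 195 and 166 ± 92.1, and the log2 difference was -1.03, the largest among the members in size (SE 0.77, interval from -2.72 to 0.67, limma adjusted p = 0.590). Without sham replicate 1 it was -0.62 and without sham replicate 3 it was -1.54. The Smad7 transcript, at 56.9% G and C, also belongs to the top bin of base composition. Its log2 deviations in the OHT libraries (-1.13, 0.33 and -0.74) had the signs of that bin's medians. In sham they fell from replicate 1 to 3 (1.32, 0.74 and -0.52), where the medians rose (0.099, 0.25 and 0.33). The part of base composition was not tested.

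Set against Smad3 per kb, Smad7 was at 0.333, 0.374 and 0.217 in sham and at 0.0881, 0.202 and 0.0684 in OHT libraries. All OHT ratios lay below all sham ratios, the nearest being 0.202 and 0.217. This was 1 of 3 ratios computed and was chosen after the values were seen, so it carries no test. Of single tested genes 18.4% lay apart in either direction in normalised counts. In the cultures the ratio was 0.441, 0.345 and 0.354.

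The rest of the pathway was followed through 9 lists of 89 genes, of which 75 could be tested. None passed the threshold. At an unadjusted p under 0.05 limma listed 9 of the 75 (12%), close to the 11.7% of all genes: 3 with higher values in OHT (Thbs1, Cdkn1a and Id2; 5.37% of all genes were in that direction) and 6 with lower ones (Fbn1, Nbl1, Bmper, Ccn2, Id1 and Id4; 6.3% of all genes). In normalised counts 5 lay above sham without overlap and 8 below, together 17.3% beside 18.4% of all genes. Genes singled out below for their p or their separation fall partly outside the rule for named genes. The list medians describe few genes each, and several moved with a single library or the scaling, as given beside them.

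The list of latency and activation genes had a median log2 difference of -0.44 over 12 tested (-0.040 without OHT replicate 3 and 0.048 without sham replicate 2). The highest expressed were Itgb5, an integrin subunit that can activate the latent ligand, at 14733 ± 4747 normalised counts in sham and 19376 ± 3344 in OHT libraries, and Nrros, which holds latent Tgfb1 on the microglial surface, at 9125 ± 971 and 9807 ± 652. Their log2 differences were 0.43 and 0.11. Nrros lay between 158 and 263 ppm in every sorted library and its groups overlapped. Thbs1, the thrombospondin that releases latent ligand, was at 594, 485 and 1311 in sham and at 2421, 1427 and 2819 in OHT libraries, without overlap (log2 difference 1.56, SE 0.49, limma adjusted p = 0.332). Fbn1, the fibrillin that carries the binding proteins, also lay apart, at 134, 352 and 267 in sham and 16.6, 127 and 8.82 in OHT libraries (log2 difference -3.06, SE 1.13, limma adjusted p = 0.365).

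Other ligands of the superfamily had a median of -0.87 over 9 tested (-0.10 without sham replicate 3), led in level by Gdf15, a stress-induced member, and Bmp2. Gdf15 was at 619, 729 and 4525 normalised counts in sham and 8314, 5347 and 724 in OHT libraries, a spread that left no separation (log2 difference 1.33). Bmp2 had a log2 difference of 0.59. The other receptors had a median of -0.59 over 9 tested (-0.18 without OHT replicate 1); Acvrl1 was at 2318 ± 414.5 and 2628 ± 922 and the co-receptor Eng at 2722 ± 1055 and 1880.3 ± 917 normalised counts, with log2 differences of 0.12 and -0.59. Of the other SMADs Smad4, the common partner, was at 709 ± 81.4 and 1009 ± 83.8 without overlap (log2 difference 0.51, limma adjusted p = 0.616), though its groups overlapped in ppm, and Smad5 had a log2 difference of -0.45. Their median over 4 tested was -0.26, with a sign that turned without OHT replicate 1 (0.062) or sham replicate 1 (0.0055) and with quantile normalization (0.42).

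The intracellular and membrane inhibitors had a median of -0.040 over 9 tested, with a sign that depended on single libraries (-0.26 to 0.14). The highest were Skil, a corepressor bound to SMADs, at 9348 ± 4746 and 14846 ± 6668 normalised counts (log2 difference 0.65), and Tgif1, a homeodomain corepressor, at 4923 ± 1477 and 7916 ± 1866 (0.70). The secreted antagonists had the lowest median, -1.52, but from 4 genes (-2.42 without sham replicate 1 and -2.27 without OHT replicate 2). Nbl1, which binds BMPs, was at 2849, 6635 and 4408 in sham and 1365, 1713 and 602 in OHT libraries, and Bmper at 90.9, 261 and 103 and at 0, 5.76 and 17.6. Both lay apart without overlap, with log2 differences of -1.96 (SE 0.48) and -4.76 (SE 1.41) and a limma adjusted p of 0.332 each. Mural and fibroblast marker reads were lower in the same OHT libraries (0.000881% to 0.00553% against 0.0124% to 0.0379%). Of that list 6 of the 7 tested genes had negative differences, and the smooth muscle myosin Myh11 was at 0 in OHT replicates 2 and 3. Endothelial marker reads were lower in these libraries too. The part of mural or endothelial cells in these values was not tested.

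Genes that TGF-beta induces in many cells had a median of -1.08 over 15 tested, below the -0.12 of all genes. Their 2 highest were Junb, at 52898 ± 7621 and 39856 ± 31134 normalised counts with OHT replicate 3 alone at 4741, and Cdkn1a, the cell cycle inhibitor p21, at 6956, 5334 and 7972 in sham and 18458, 9488 and 20419 in OHT libraries. Cdkn1a lay apart without overlap (log2 difference 1.20, SE 0.37, limma adjusted p = 0.332). Ccn2, the connective tissue growth factor, lay apart in the other direction, at 133, 869.8 and 979.8 in sham and 62.2, 75.7 and 61.7 in OHT libraries (log2 difference -2.85, SE 0.89, limma adjusted p = 0.332). The list's median was -0.57 without OHT replicate 3, -0.41 with quantile normalization and -0.70 over genes with a mean of at least 100. It holds genes that mural cells and fibroblasts express, such as Acta2 and Col1a1. The shares of mural and fibroblast and of endothelial marker reads were lower in the same OHT libraries, and their part was not tested. The Id genes, which respond mainly to BMPs, had a median of -0.79 over 4 tested (-0.47 without sham replicate 2): Id2 was at 11178, 10668 and 17116 in sham and 31226, 20935 and 29791 in OHT libraries (log2 difference 1.08), Id3 had a log2 difference of -0.27 and Id1 one of -1.31. Id4 was at 62.0, 1421 and 1304 in sham and 47.0, 59.3 and 84.9 in OHT libraries (log2 difference -2.96, limma adjusted p = 0.374), where sham replicate 1 lay within the OHT range.

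Genes whose expression in microglia depends on TGF-beta had a median log2 difference of 0.051 over 9 tested, a sign that turned with quantile normalization (-0.26), with scaling to the library total (-0.20), without OHT replicate 1 (-0.041) and without sham replicate 3 (-0.10). None of the 9 lay apart between the groups, beside 18.4% of all genes. The fractalkine receptor Cx3cr1 was at 69309 ± 19026 normalised counts in sham and 70288 ± 5909.6 in OHT libraries (log2 difference 0.051). Their summed share of the reads was between 0.844% and 1.98% in sham and between 1.21% and 1.38% in OHT libraries. All OHT shares thus lay inside the sham range, while the share of general microglia and macrophage markers did not.

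**Figure D4:**
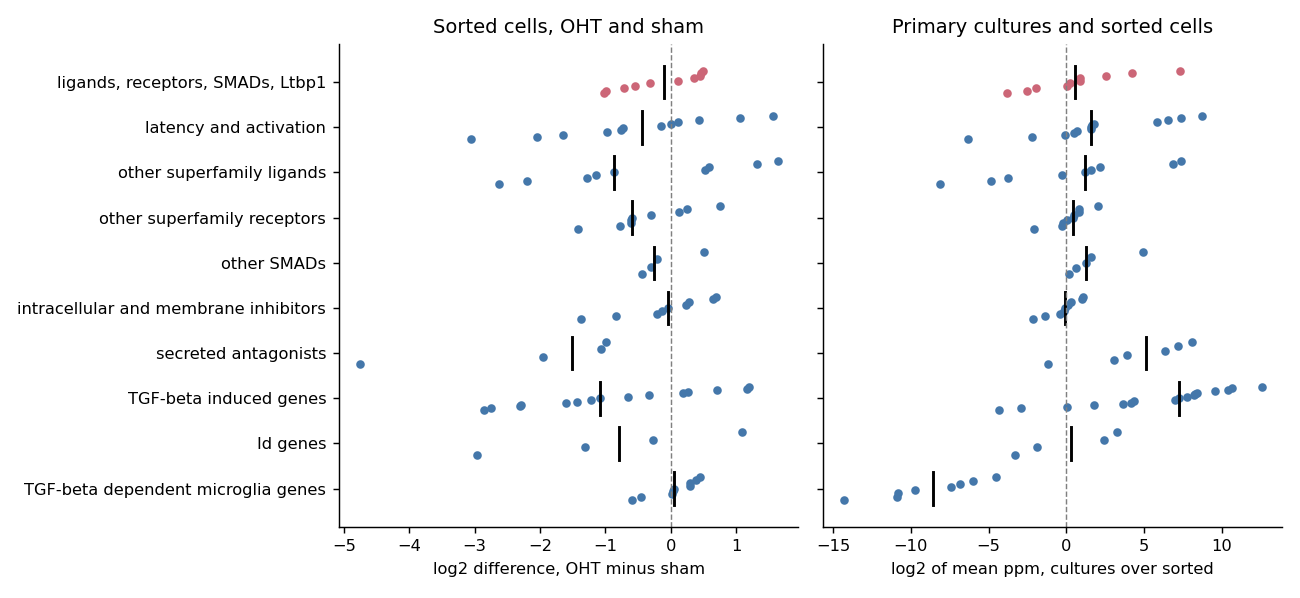
Each point is 1 gene of the members (red) or of a pathway list (blue), and black bars are list medians. Left, the log2 difference of OHT minus sham, with list medians from -1.52 to 0.051; right, the log2 ratio of mean ppm in cultures over sorted cells for genes above 0 in both, with list medians from -8.56 for the microglia genes to 7.23 for the induced genes.

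The primary cultures gave the widest differences in the family. Their table was normalised separately, so levels are given in ppm with no test, and the cultures differ from the sorted cells in age, culture, serum and cell make-up, which cannot be told apart. Of the 10 members 4 were above all 6 sorted libraries in every culture (32.5% of the 15438 genes in both tables were), 3 were below (16.5%) and 3 overlapped, so that 7 of 10 lay apart beside 49.0% of all genes. The median log2 ratio of culture over sorted was 0.54 over the members and 0.22 over all genes above 0 in both tables.

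The leading ligand of the cultures was Tgfb3, not Tgfb2. It was at 251, 247 and 182 ppm in the cultures and at no more than 3.35 ppm in any sorted library, with a ratio of means of 157. Tgfb2 was at 62.4, 70.6 and 64.0 ppm against 13.6 to 58.1, a ratio of 1.82, so its nearest libraries were 62.4 and 58.1 ppm. The totals behind ppm include mitochondrial transcripts, 18.1% of the reads in sham replicate 2, the library at 58.1 ppm. In the cultures these were 0.890%, 0.646% and 0.649%. The place of Tgfb2 above all sorted libraries may depend on that total, and totals without mitochondrial transcripts were not computed. Tgfb1 was at 0.724, 1.22 and 0.678 ppm against 1.91 to 7.63, which was 5.88-fold lower. As shares of ligand reads per kb, Tgfb3 made up 83.3% ± 2.44 of the cultures, Tgfb2 16.2% ± 2.41 and Tgfb1 0.497% ± 0.131. The largest of these differences, that of Tgfb3, was seen in all 3 cultures.

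Ltbp1 was at 98.7, 105 and 114 ppm in the cultures against 0.483 to 11.2 ppm in sorted cells, 18.5-fold higher by the means. Of the latency list Ltbp2 was also higher, at 495 ± 118 ppm against a sorted maximum of 1.87. Lrrc32, the membrane anchor GARP, was at 83.6 ± 2.63 ppm against 1.85. Ltbp4 overlapped, at 4.52 ± 0.868 ppm against 0.361 to 10.9. Nrros, the anchor of microglia, was at 2.74 ± 0.279 ppm against a sorted mean of 218. Over the latency list 7 genes were above all sorted libraries (32.5% of all genes were), 2 below (16.5%) and 4 overlapped. Ltbp2, Ltbp4 and Lrrc32 were picked after their values were seen.

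The signalling receptors were lower in the cultures. Tgfbr1 was at 23.7, 28.8 and 32.5 ppm against 279.6 to 542 in sorted cells, 14.3-fold lower, and Tgfbr2 at 27.2, 45.6 and 44.6 ppm against 114 to 181, 3.89-fold lower. Since Tgfbr1 differed more, the ratio of Tgfbr2 to Tgfbr1 per kb was 0.816, 1.13 and 0.975 in the cultures, above every sorted library (0.217 to 0.360). Tgfbr3 went the other way, at 4.48, 4.23 and 5.80 ppm against 0 to 3.37, a ratio of means of 5.75. Tgfb1, Tgfbr1 and Tgfbr2 were the members below all sorted libraries. So were 10 of 10 microglia and macrophage markers and 9 of 10 Müller glia markers. Of the markers found in both tables, 5 of 5 for rods and 4 of 5 for endothelial cells were below as well (16.5% of all genes). Of 8 mural and fibroblast markers 4 were above (32.5% of all genes), 2 were below and 2 overlapped. All 5 astrocyte markers overlapped. The mural and fibroblast share was 0.0368% to 0.0467% in the cultures. It was 0.0124% to 0.0379% in sham and 0.000881% to 0.00553% in OHT libraries. The part of any cell type in these values was not tested.

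For the SMADs cultures and sorted cells overlapped. Smad2 was at 36.6, 39.7 and 36.002 ppm in the cultures against 26.3 to 36.6 in sorted cells, Smad3 at 35.8, 36.6 and 36.1 against 19.4 to 59.4, and Smad7 at 13.3, 10.6 and 10.7 against 1.49 to 13.8. In order of ppm per kb the cultures read Tgfb3 (67.0 ± 11.6), Ltbp1 (15.9 ± 1.19), Tgfb2 (12.8 ± 0.856) and Smad3 (7.11 ± 0.0833), each apart from the next. Tgfbr1 (4.92 ± 0.769), Tgfbr2 (4.83 ± 1.28) and Smad2 (4.63 ± 0.247) overlapped with their neighbours. Below them came Smad7 (2.698 ± 0.351), Tgfbr3 (0.794 ± 0.138) and Tgfb1 (0.401 ± 0.137), again without overlap. Tgfb3, next to last in the sorted cells, was thus first in the cultures, and Tgfbr1, first in the sorted cells, stood in the middle of the order.

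**Figure D5:**
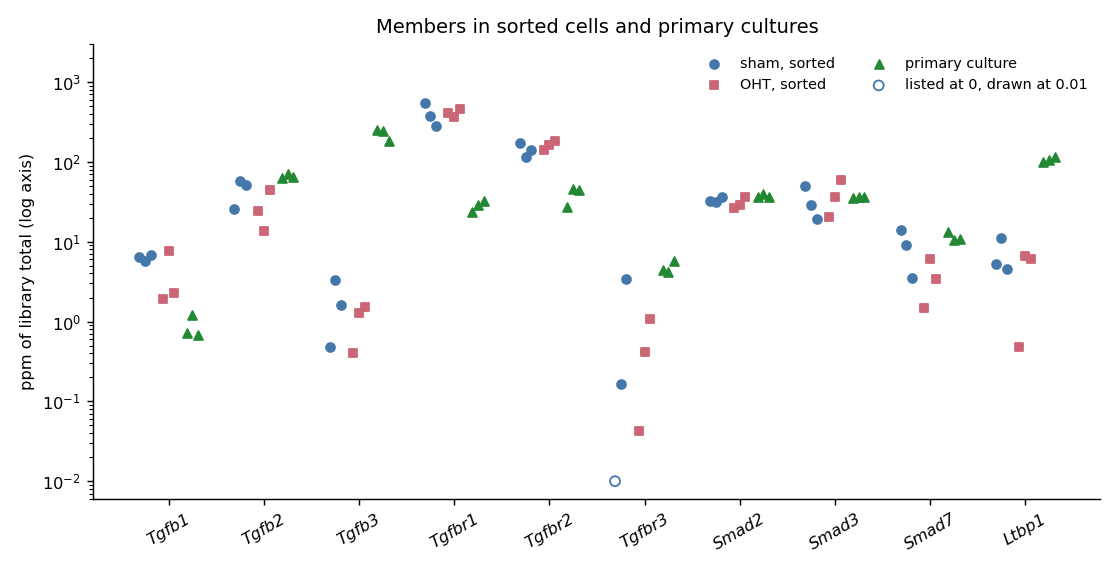
Level of each member in ppm of the library total on a log axis, in sham (circles), OHT (squares) and culture (triangles) libraries; the open circle is a library with 0 reads, drawn at 0.01. Tgfb3 and Ltbp1 lie far above the sorted libraries in the cultures (182 to 251 and 98.7 to 114 ppm) and Tgfbr1 far below (23.7 to 32.5 ppm).

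Among the pathway lists the cultures stood out in the genes that TGF-beta induces: 14 of 17 were above all sorted libraries (32.5% of all genes), 1 was below (16.5%) and 2 overlapped, with a median log2 ratio of 7.23. Col1a1, a fibrillar collagen, was at 5717 ± 1383 ppm against at most 2.18 ppm in sorted cells, and fibronectin, Fn1, at 4666 ± 929.8 against 64.4 at most; both were picked after their values were seen. All 8 of the TGF-beta dependent microglia genes present in both tables were below all sorted libraries, with Cx3cr1 at 0.892 ± 0.452 ppm against 1001 at least. Of the secreted antagonists 5 of 6 were higher, and of the other SMADs 4 of 5, among them Smad4 at 30.4 ± 2.51 ppm against at most 26.6. The other receptors mostly overlapped (8 of 9), with Eng, higher at 219.8 ± 37.2 ppm against at most 88.8, as the exception.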

How the data were processed

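Gene expression was measured by paired-end RNA sequencing (150 bp) of 9 mouse libraries after template-switching amplification of cDNA, per the labels' protocols. Per the submitters' processing notes, the tools named are bcl2fastq 2.20, Trim Galore 0.6.6, FastQC 0.11.9 and STAR 2.7.1a, and the build mm39. The sources used here do not name the counting program, strand setting, annotation or normalization tool. The deposited signal is 1 normalised count per gene and library, made by the authors as a count divided by 1 factor per library, which the values themselves show. Dividing each column by the worth of 1 read turned 100% of the values into whole reads (tolerance 0.05 reads), although the factor of culture replicate 3 is too near 1 for an independent check.

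OHT and sham libraries were compared with limma 3.58.1 in R 4.3.3 (trended eBayes) on log2(value + 1), over 14403 genes with a mean of at least 10, with Benjamini-Hochberg adjustment over all of them. The added count of 1 can shrink the differences of low genes, but these differences of mean logs are not always the smaller ones. Ltbp1 was at -0.99 with limma and -0.58 with DESeq2, and Tgfb1 at -0.71 and -0.48. Tgfb3 went the other way, at -0.33 and -0.64. edgeR 4.0.16 and DESeq2 1.42.0 were run on recovered reads as alternatives. The main limma fit and the edgeR and DESeq2 fits were also run on simulated data, while the other settings were not. Levels per kb used the longest protein-coding transcript of each gene in GENCODE M21 (GRCm38), and promoter windows came from RefSeq on GRCm38.p6. That build differs from mm39, so no other coordinates are given. Counting limits, such as the floor of 3 reads, cover counting error only, since amplified reads are not independent molecules.

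The members, gene lists and tests were chosen with earlier results of these data known. Named genes are all members, the 2 tested genes of each list with the highest sorted mean, every gene past the threshold, and the 2 nearest profiles of each ligand. A few genes that this rule names are not reported here. Others are marked as chosen after their values were seen. Replicates were compared by chi-square over genes, and no pair agreed within sampling noise. Sample numbers gave no sign of pairing libraries, as the closing section reports.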

Additional observations from a re-analysis of the deposited data

How the results depend on the processing

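Of 168 values of the members' log2 differences recomputed under other settings, 155 kept their sign and none reached an adjusted p under 0.05 (smallest 0.375). The 13 that changed sign belong to 5 members. Tgfb3 turned to 0.55 with quantile normalization and ranged from -1.09 to 0.29 leaving out 1 library each. Tgfbr1 turned to -0.086 with quantile normalization. Tgfbr3 turned to -1.29 with DESeq2, -1.36 with edgeR and -0.16 with a pseudocount of 10, and ranged from -1.19 to 2.39 leaving out 1 library each. Smad2 turned to -0.14 with scaling to the library total, chosen after seeing the data, and -0.014 with quantile normalization, and ranged from -0.017 to 0.21 leaving out 1 library each. Ltbp1 ranged from -1.58 to 0.011. The genes past the threshold numbered 250 with DESeq2 (54 higher, 196 lower) and from 0 to 17 leaving out 1 library each: 12 without sham replicate 1, all lower, and 17 without sham replicate 3, all higher. With the replicate number as a block they numbered 2, 1 in each direction, and no member was among them. Libraries of the same number correlated at 0.078, -0.025 and -0.045 in their deviations, and sham replicate 2 with OHT replicate 3 at 0.1. These values gave no sign of pairing by number, but they cannot exclude a shared preparation. Of the pathway lists DESeq2 called 3 genes, Nbl1, Ccn2 and Id4, all lower, beside 1.74% of all genes. List medians with quantile normalization were -0.082 for other ligands and -0.079 for other receptors, and other SMADs turned to 0.42 and the microglia genes to -0.26. The microglia median also turned to -0.017 with TMM factors and -0.040 with edgeR. The causes of these changes were not tested.

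In the cultures, leaving the 20 highest genes out of the library total gave 73.8 ppm for Tgfb2, 42.1 for Smad2, 40.7 for Smad3 and 119 for Ltbp1. The totals of the sorted libraries were not changed in this way, so these values cannot be set against the sorted ppm. Ligand shares of reads not divided by length were 13.2% in sham and 0.296% in cultures for Tgfb1, 83.8% and 22.7% for Tgfb2, and 77.0% in cultures for Tgfb3. With 3 libraries a group the intervals of the members span changes in either direction, and for Tgfbr3 and Tgfb3 few reads limit the values further.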

Other observations

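Some genes of the lists, picked after their values were seen, have values that the comparisons above leave out. In the cultures Acta2, smooth muscle actin, was at 10370 ± 2618 ppm (SD, n = 3), whereas Tagln, the actin-binding protein transgelin that usually accompanies it in smooth muscle, was at 6.32 ± 1.55 ppm. Inhba, which encodes an activin subunit, was at 1083 ± 139.7 ppm in the cultures against 2.14 to 14.2 ppm in sorted cells, and Thbs1 at 3140 ± 559 ppm against 12.3 to 74.6. Bmp5 went the other way, at 0.0274 ± 0.0262 ppm against 0.987 to 19.1. Among sorted libraries, Junb was between 47946 and 64085 normalised counts in 5 libraries and at 4741 in OHT replicate 3.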
